A study of Mus musculus with 27 samples.

Results

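Lung RNA of the inbred strains BALB/cJ and DBA/2J was compared across all genes on the array. The comparison took 3 arrays of BALB/cJ and 3 of DBA/2J, chosen by the strain in the labels, out of 27 arrays of 9 strains. Every array held RNA from the right lung of 1 female mouse aged 11 weeks, hybridised to a Mouse Gene 1.0 ST array, a whole-transcript array with 1 probe set per gene. The labels class BALB/cJ as increased in the severity and decreased in the frequency of spontaneous pulmonary adenoma, and DBA/2J as increased in both. The lungs are labelled normal. Neither strain carries a transgene in the labels, and with 1 strain on each side every fixed genetic difference between them is part of the comparison.

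BALB/cJ is an albino strain known for strong T helper type 2 responses, and DBA/2J is a pigmented strain that carries several well-known loss-of-function alleles. The lung is built of gas-exchanging alveoli, in which type II cells make surfactant and type I cells form the thin barrier, and of airways lined by secretory club cells, goblet cells and ciliated cells. Alveolar macrophages clear surfactant and particles. In whole tissue, fewer cells of a type and less RNA per cell cannot be told apart.

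The samples carried the defining genes of lung epithelium: the 10 genes listed for it averaged between 10.87 and 10.92 on the log2 signal scale over every one of the 6 arrays, with Sftpc, a surfactant protein of type II cells, differing by 0.00. Each of the 6 arrays correlated best with arrays of its own strain, at 0.994 to 0.995 within BALB/cJ, 0.994 to 0.995 within DBA/2J and 0.989 to 0.992 between them. Genes of the Y chromosome, which females lack, had strain means between 2.58 and 5.10, or up to 3.50 without Sry, and mark the level of probe sets with no template. The labels do not say whether mice shared a cage or litter. The array names number the 3 arrays within each strain and give no run order, so whether run order went with strain is not known.

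At least 2-fold differences were found for 92 genes, 0.455% of the 20239 tested. A gene counted here when its Benjamini-Hochberg adjusted p from limma was under 0.05 and its mean log2 signals differed by at least 1. Of these, 38 (0.188%) were higher in BALB/cJ and 54 (0.267%) were lower. Without a minimum difference 1064 genes (5.26%) passed, 427 higher (2.11%) and 637 lower (3.15%). Differences of at least 0.5 on the log2 scale were found for 519 of them, of at least 2 for 14 and of at least 3 for 3. The number passing depended on single arrays, falling to 658 without DBA/2J replicate 1, while the number at 2-fold ranged from 82 to 93 when any 1 of the 6 arrays was left out. The arrays of the strains did not overlap for 90 of the 92 genes, the exceptions being Rpsa and Reg3g. Over all genes the share was 20.2%, but a passing 2-fold difference itself favours arrays that do not overlap. All differences below are BALB/cJ minus DBA/2J on the log2 signal scale, with the standard error of the fit.

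**Figure D1:**
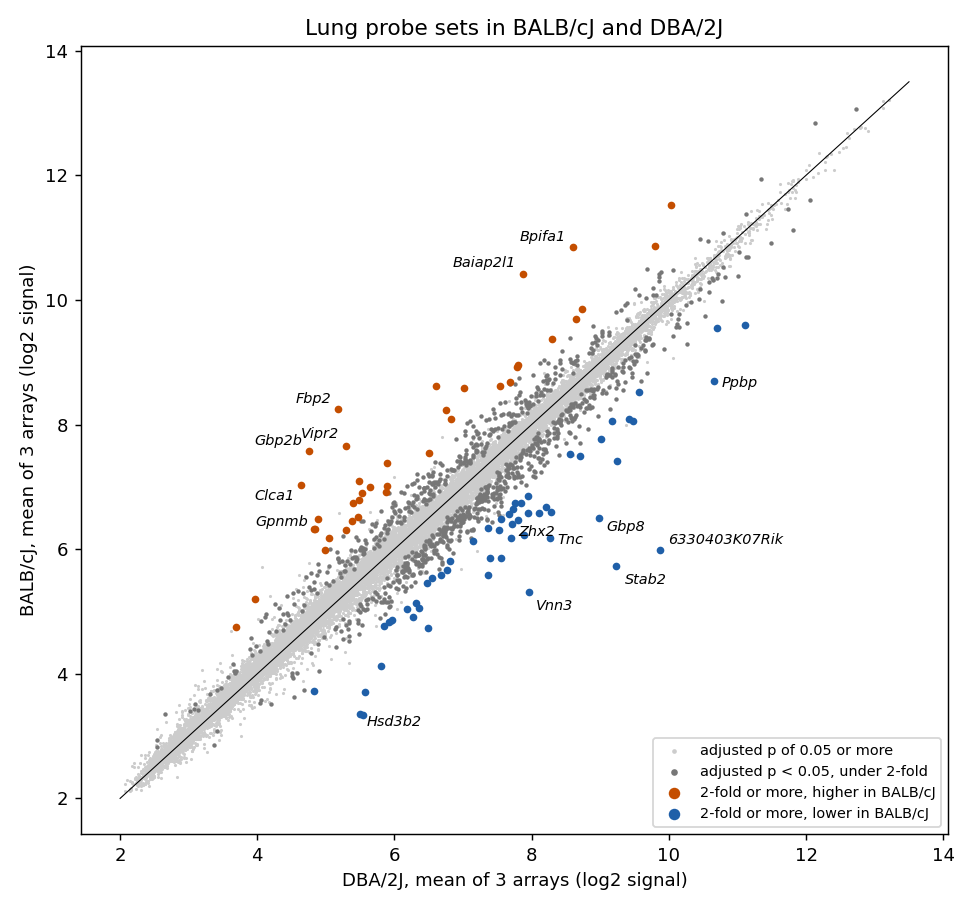
Mean log2 signal of each probe set in DBA/2J (horizontal axis) and BALB/cJ (vertical axis), 3 arrays each, with the line of equality. Orange points are the 38 genes at least 2-fold higher in BALB/cJ, blue points the 54 lower, dark grey points genes that passed with a smaller difference and light grey points the others; 6330403K07Rik and Stab2 lie farthest below the line and Fbp2 farthest above it.

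Setting the 92 genes beside the means of the other 7 strains showed which of the strains stood apart. A strain counted as outside at any margin, and the smallest margins lie within the spread between arrays. They ranged from 0.0019 for BALB/cJ in Gm6969 to 3.68 for DBA/2J in 6330403K07Rik, on the log2 scale. DBA/2J alone lay outside the range of the other 8 strains for 36 genes (39.1%), BALB/cJ alone for 25 (27.2%), both at opposite ends for 10 (10.9%) and neither for 21 (22.8%). Counting the shared 10, DBA/2J was at an end of the 9 strains for 50.0% of these genes and BALB/cJ for 38.0%. Over all genes the shares were 17.7% and 15.8%, and over the 1064 passing genes the order turned, with DBA/2J at an end for 40.7% and BALB/cJ for 44.8%. Picking genes for a difference between these strains itself moves them toward an end of the 9. The shares above those of all genes are therefore partly built in by the choice. Among the 54 genes lower in BALB/cJ, DBA/2J alone was outside for 25 and BALB/cJ alone for 12; among the 38 higher genes the counts were 11 and 13. For 18 genes all 7 other strains were nearer to BALB/cJ, and for 5 all were nearer to DBA/2J. These 5 were Zhx2, Krt79, Mfsd2a, Ltf and Veph1. The remaining 69 genes divided the other strains.

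The largest differences were in genes high in DBA/2J and low in BALB/cJ and in all the other strains. 6330403K07Rik, an uncharacterised gene, read 6.12, 5.97 and 5.86 in BALB/cJ and 9.80, 9.80 and 9.99 in DBA/2J, a difference of -3.88 ± 0.16 (limma adjusted p = 1.6916e-13). Stab2, a scavenger receptor of sinusoidal endothelium that takes up hyaluronan, read 5.74, 5.90 and 5.57 in BALB/cJ and 9.06, 9.41 and 9.23 in DBA/2J, a difference of -3.50 ± 0.10 (limma adjusted p = 6.0822e-17). The other 7 strains averaged 5.54 to 6.18 for 6330403K07Rik and 5.32 to 5.90 for Stab2, so BALB/cJ was among them and DBA/2J stood more than 3 log2 units above. The related scavenger receptor gene Stab1 differed by -0.10 and did not pass.

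A second set with DBA/2J above all 8 other strains held genes of matrix, immunity and sugar metabolism. Tnc, the matrix glycoprotein tenascin C, read 6.06, 6.50 and 5.99 in BALB/cJ against 8.22, 8.54 and 8.05 in DBA/2J, a difference of -2.09 ± 0.22. Npl, which breaks down sialic acid, read 5.87, 5.83 and 5.90 against 7.58, 7.49 and 7.59, a difference of -1.69 ± 0.09. Orm3, of the acute-phase orosomucoid family, read 3.78, 3.64 and 3.70 against 5.43, 5.16 and 6.14. Its difference was -1.87 ± 0.15, and the BALB/cJ values were just above 3.50, the highest Y-linked mean without Sry. All 3 genes passed (limma adjusted p = 8.3566e-07, 9.1927e-12 and 1.1287e-08), and arrays without overlap were a condition for naming them. Orm3 was the single member to pass among 3 orosomucoid genes measured. Dpt, the matrix protein dermatopontin, was also lower in BALB/cJ (-1.51 ± 0.10), and here DBA/2J (11.12, 11.09 and 11.14) exceeded the highest of the other strains, 10.91.

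Other genes low in BALB/cJ were shared with some strains and not with others. Hsd3b2, an enzyme of steroid hormone synthesis, read 3.25, 3.52 and 3.29 in BALB/cJ and 5.41, 5.30 and 5.77 in DBA/2J. Its difference was -2.14 ± 0.14 (limma adjusted p = 6.3103e-10), it was the one member to pass of 6 measured in its family, and 129S1/SvlmJ (5.50) was as high as DBA/2J. 1810037I17Rik, uncharacterised, read 3.26, 3.27 and 3.50 against 5.24, 5.13 and 6.26, again with 129S1/SvlmJ (5.22) on the DBA/2J side. For both genes the BALB/cJ mean was under 3.50, at the level of Y-linked genes, so their differences are lower bounds. With Sry counted that level was 5.10, and 21 of the 92 genes had their dimmer strain mean under it. Among them were Gbp2b, Gpnmb, Clca1 and Mir30a in DBA/2J and Mrap2 in BALB/cJ, whose differences may be lower bounds too. For 2 of the 92 genes both strain means were under 5.10. Mrap2, an accessory protein of melanocortin receptors, differed by -1.74 ± 0.16 with C57L/J near DBA/2J, and the zinc finger gene Zfp949 by -1.68 ± 0.11 with MRL/MpJ (8.24) near DBA/2J. Gm6969, a predicted gene whose signal may come from related copies, differed by -1.84 ± 0.28; its BALB/cJ arrays spread from 6.69 to 7.98 and its DBA/2J arrays from 9.23 to 9.26.

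Genes higher in BALB/cJ were led by Fbp2, the muscle form of the gluconeogenic enzyme fructose bisphosphatase. Fbp2 read 8.32, 8.09 and 8.33 in BALB/cJ and 5.34, 5.20 and 5.002 in DBA/2J, a difference of 3.07 ± 0.14 (limma adjusted p = 1.9295e-13). The liver form Fbp1 read 5.13 to 5.47 against 4.09 to 4.36 and did not pass (limma adjusted p = 0.168). Gbp2b, a guanylate-binding protein induced by interferon, read 7.72, 7.48 and 7.53 against 4.66, 4.70 and 4.92, a difference of 2.82 ± 0.12. Baiap2l1, a membrane-bending adaptor of the actin cytoskeleton, read 10.45, 10.29 and 10.53 against 7.91, 7.76 and 7.93, a difference of 2.56 ± 0.11. In each of these 3 genes all BALB/cJ arrays lay more than 2 log2 units above all DBA/2J arrays. DBA/2J shared its low level with other strains, C57BL/6J (5.10) for Fbp2, C57BL/6J (4.08) and MRL/MpJ (4.43) for Gbp2b, and 5 strains between 7.68 and 8.08 for Baiap2l1, whereas A/J (10.44) matched BALB/cJ.

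Vipr2, a receptor for vasoactive intestinal peptide, was steady within BALB/cJ at 7.65, 7.67 and 7.65 and low in DBA/2J at 5.16, 5.16 and 5.55. The difference was 2.37 ± 0.13 (limma adjusted p = 2.3041e-11), C57L/J (5.16) was as low as DBA/2J, and the sister receptor gene Vipr1 differed by 0.09 and did not pass. Abca17, a lipid transporter of the ABC family, was higher by 1.61 ± 0.14. Catspere2, related to a sperm cation channel subunit, was higher by 1.60 ± 0.28. Chil1, a chitinase-like secreted protein, read 11.44, 11.54 and 11.57 against 10.21, 10.04 and 9.82, a difference of 1.49 ± 0.12. Its relatives did not follow it, with Chil5 lower (-0.50 ± 0.12) and Chil3 at -0.67 ± 0.20 just short of passing (limma adjusted p = 0.0508).

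A further 3 genes higher in BALB/cJ had DBA/2J as the outlying strain. Igha, the constant region of IgA antibodies, read 8.39, 8.83 and 8.51 in BALB/cJ and 6.89, 7.06 and 7.09 in DBA/2J, a difference of 1.56 ± 0.34 (limma adjusted p = 0.0054), and the other 7 strains averaged 8.11 to 11.67. It was the one gene to pass of 15 on the plasma cell and immunoglobulin list. Gpnmb, a glycoprotein of macrophages and pigment cells for which DBA/2J carries a known nonsense allele, read 6.22, 6.09 and 6.65 against 4.59, 4.92 and 4.99. The Gpnmb difference was 1.49 ± 0.12 (limma adjusted p = 1.7723e-08), yet BALB/cJ was itself below the other 7 strains, whose means were 7.01 to 8.30. Aox3, an aldehyde oxidase, was higher by 1.11 ± 0.09, with DBA/2J at 8.69 to 8.77 and all other strains at 9.51 or above.

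**Figure D2:**
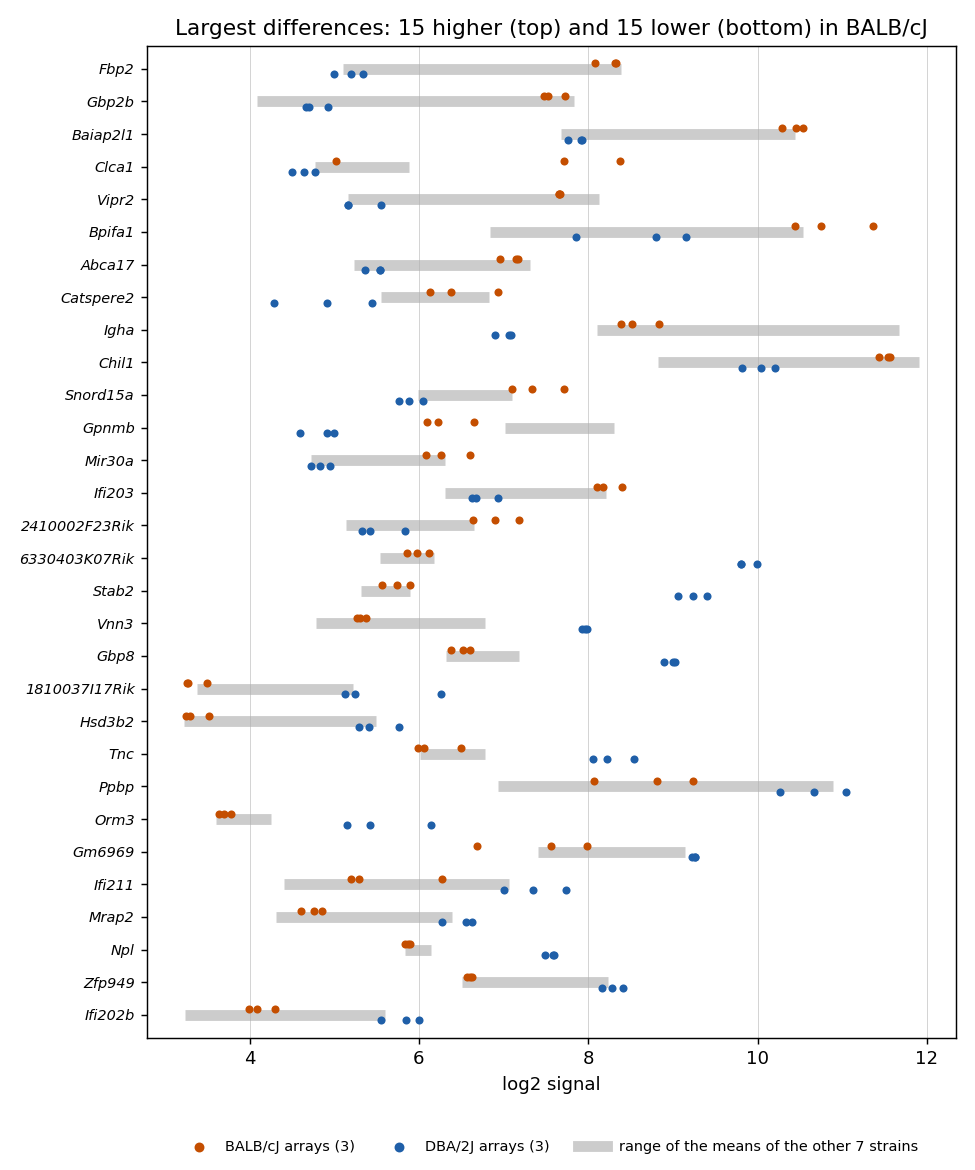
Log2 signal (horizontal axis) on the 3 BALB/cJ arrays (orange) and 3 DBA/2J arrays (blue) for the 15 genes with the largest higher and the 15 with the largest lower values in BALB/cJ whose arrays did not overlap; grey bars span the means of the other 7 strains. DBA/2J lies to the right of the grey bar for 6330403K07Rik, Stab2, Gbp8, Tnc, Orm3 and Npl.

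Zhx2 had the largest difference of the 5 genes for which all other strains were nearer to DBA/2J. Zhx2 is a transcriptional repressor, and BALB/cJ is known for a retroviral insertion that lowers its expression in liver. The lung arrays read 5.89, 6.57 and 6.09 in BALB/cJ and 7.69, 7.78 and 7.64 in DBA/2J, a difference of -1.52 ± 0.12 (limma adjusted p = 1.7723e-08). The other 7 strains averaged 7.51 to 7.92, around DBA/2J. The related Zhx1 (-0.02) and Zhx3 (0.13) did not pass. Nor did the liver targets of Zhx2 looked up after its value was seen: Afp (0.11), H19 (-0.06), Gpc3 (0.06) and Lpl (0.21). Afp lay at 4.41 in BALB/cJ and 4.31 in DBA/2J, under the Y-linked level of 5.10 with Sry counted, where a difference may be hidden. Of the other 4 of the 5 genes, Krt79, a keratin also found in alveolar macrophages, was lower in BALB/cJ (-1.33 ± 0.11). Mfsd2a, a lipid transporter, was lower too (-1.30 ± 0.15). Veph1, a membrane-associated protein, was higher by 1.36 ± 0.11, with BALB/cJ at 6.94 to 7.06 and every other strain at 5.93 or below.

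Some of the 92 genes were neighbours. In all, 5 runs of adjacent genes held 11 of them. In the Ifi200 cluster of chromosome 1, which encodes interferon-inducible DNA sensors, Ifi211 (-1.78) and Ifi202b (-1.67) were lower and Ifi203 (1.48) was higher in BALB/cJ. On chromosome 5 Gbp8 (-2.48) and Gbp9 (1.00) moved oppositely. The other runs each had 1 direction: the carboxylesterases Ces1f (-1.06) and Ces1g (-1.53) on chromosome 8, the pantetheinases Vnn3 (-2.64) and Vnn1 (-1.54) on chromosome 10, and Pisd-ps1 (-1.04) and Sfi1 (-1.42) on chromosome 11. The Ifi200, Gbp, Ces1 and Vnn runs hold similar copies, so probes may share signal between neighbours. In every run, signal also depends on how closely each strain's sequence matches the probes. Neither was tested. Chromosome 1 held 12 of the 92 genes, 1.05% of its 1139 tested, and chromosome 18 none of 506.

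The vanin pair illustrates such a run. Vanins release pantothenic acid and cysteamine from pantetheine at the cell surface. Vnn3 read 5.27, 5.38 and 5.31 in BALB/cJ and 7.99, 7.93 and 7.96 in DBA/2J (limma adjusted p = 2.1177e-11). Vnn1 read 6.56, 6.86 and 6.60 against 8.31, 7.97 and 8.36 (limma adjusted p = 2.4883e-08). These were the 2 vanin genes measured, and DBA/2J exceeded every other strain mean for each, the next being 6.78 for Vnn3 and 7.61 for Vnn1.

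One microRNA gene was among the 15 most raised in BALB/cJ. MicroRNAs pair with messenger RNAs through a seed, bases 2 to 8 of the mature strand, shown in capitals because the strands of other family members were checked for the same seed (RefSeq, GRCm38.p6, chr1:23272274-23272295 and chr1:23272315-23272336, plus strand).
mmu-miR-30a-5p: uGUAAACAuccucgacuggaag
mmu-miR-30a-3p: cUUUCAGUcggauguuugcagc
Mir30a read 6.27, 6.61 and 6.08 in BALB/cJ and 4.94, 4.83 and 4.72 in DBA/2J, a difference of 1.48 ± 0.15 (limma adjusted p = 3.1025e-07). The other strains ranged from 4.72 to 6.31 and included values near each. Among the genes found here with the same 5p seed, Mir30c-1 (0.18), Mir30c-2 (0.13) and Mir30e (-0.09) differed little and did not pass. Other members of the family may be missing from this search. Mir30c-1 lay at 4.10 in BALB/cJ and 3.91 in DBA/2J, under the Y-linked level of 5.10 with Sry counted, so a difference may be hidden. Mir384, with the same seed, lay at 2.32 and 2.30, below every Y-linked mean, where no difference could be seen. The array reads labelled whole RNA, and whether the signal came from the mature strand or a longer precursor was not tested.

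Clock genes differed together in a pattern of opposite arms. In the clock, the activators CLOCK and BMAL1 (the product of Arntl), with NPAS2 standing in for CLOCK, bind E-boxes and drive Per, Cry, Nr1d1, Nr1d2, Dbp, Tef and Hlf; PER and CRY proteins then inhibit the activators, and the NR1D proteins repress Arntl and Npas2. Of 18 clock genes measured, 9 were higher in BALB/cJ, 2 were lower and 7 did not pass, against 2.11% and 3.15% of all genes; none reached 2-fold. The median difference was 0.42 over the list and 0.02 over all genes. The 9 higher genes fell to 5 without DBA/2J replicate 1, and the 2 lower genes passed whichever of the 6 arrays was left out. When only the 6 arrays were fitted, 6 clock genes were higher and 2 lower. The hour of tissue collection is not in the labels, so hour and strain cannot be told apart.

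Among the repressors and output genes, Per3 read 7.64, 8.03 and 7.85 in BALB/cJ and 6.92, 7.16 and 6.98 in DBA/2J, a difference of 0.82 ± 0.11 (limma adjusted p = 2.5973e-05). Dbp, an output transcription factor, read 8.91, 9.26 and 8.80 against 7.99, 8.55 and 7.82, a difference of 0.87 ± 0.15 (limma adjusted p = 0.00045). Per1 (0.80 ± 0.17), Hlf (0.78 ± 0.17), Per2 (0.67 ± 0.12), Nr1d2 (0.54 ± 0.08), Tef (0.47 ± 0.11), Nr1d1 (0.44 ± 0.11) and the deubiquitinase gene Usp2 (0.39 ± 0.12) were higher too. The arrays of the strains did not overlap for any of the 9. The activators went the other way. Arntl read 6.28, 6.02 and 6.23 in BALB/cJ and 7.25, 6.81 and 7.28 in DBA/2J, a difference of -0.93 ± 0.17 (limma adjusted p = 0.00088). Npas2 read 5.18, 4.71 and 4.79 against 5.89, 5.69 and 5.78, a difference of -0.90 ± 0.13 (limma adjusted p = 7.2085e-05). Clock itself did not pass (limma adjusted p = 0.17). When single arrays were left out, the calls lost were those of Hlf, Tef, Nr1d1 and Usp2, with adjusted p from 0.058 to 0.21 where lost. All 4 were lost without DBA/2J replicate 1. Nr1d1, Tef and Usp2 also did not pass when only the 6 arrays were fitted (limma adjusted p = 0.105, 0.078 and 0.058).

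**Figure D3:**
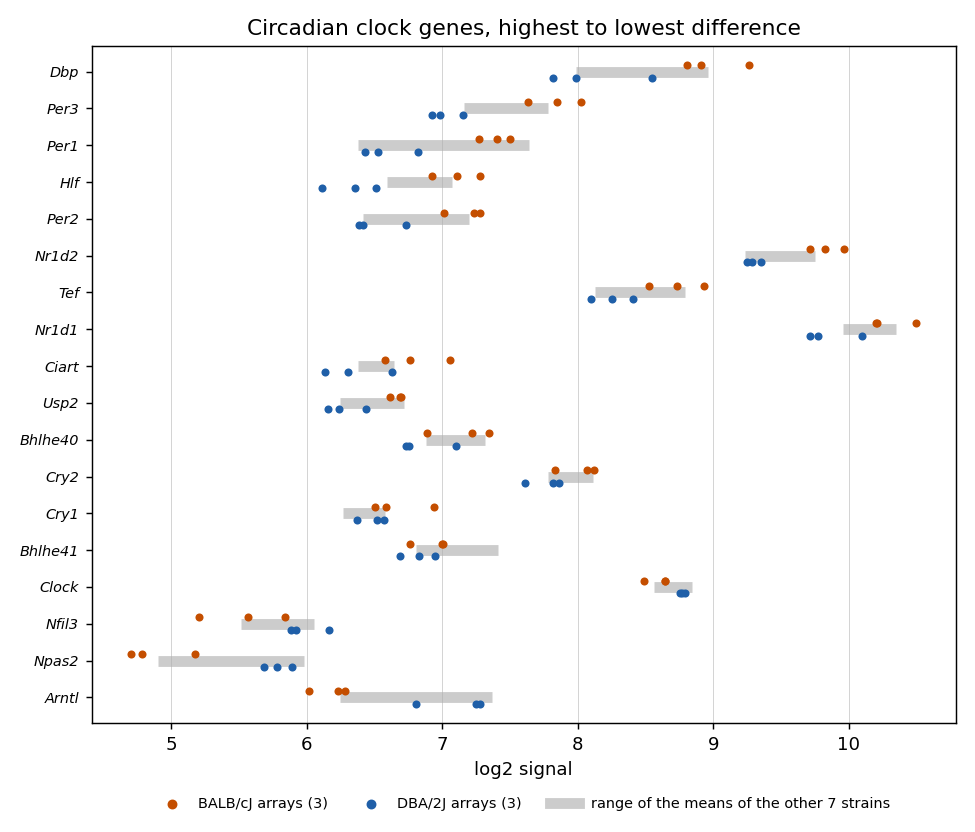
Log2 signal (horizontal axis) of the 18 clock genes on the 3 BALB/cJ arrays (orange) and the 3 DBA/2J arrays (blue), ordered by difference, with grey bars spanning the means of the other 7 strains. BALB/cJ is to the right for Dbp and Per3 at the top and to the left for Npas2 and Arntl at the bottom.

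The 250 bases before the start of 3 higher clock genes are shown because they hold letters of known clock elements, in capitals (RefSeq, GRCm38.p6, the C57BL/6J reference and not the sequence of either strain). The E-box was searched as CACGTG and the D-box as TTATGTAA, on both strands, and each is read 5′ to 3′ along the gene. Positions are chr11:69098699-69098948, plus strand for Per1; chr4:151044666-151044915, minus strand for Per3; and chr15:81802423-81802672, plus strand for Tef.
Per1: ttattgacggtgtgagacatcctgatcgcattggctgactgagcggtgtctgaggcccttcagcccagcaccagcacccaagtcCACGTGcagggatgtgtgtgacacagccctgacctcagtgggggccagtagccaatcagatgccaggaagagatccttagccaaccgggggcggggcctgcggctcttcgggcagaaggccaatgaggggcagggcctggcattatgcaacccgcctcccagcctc
Per3: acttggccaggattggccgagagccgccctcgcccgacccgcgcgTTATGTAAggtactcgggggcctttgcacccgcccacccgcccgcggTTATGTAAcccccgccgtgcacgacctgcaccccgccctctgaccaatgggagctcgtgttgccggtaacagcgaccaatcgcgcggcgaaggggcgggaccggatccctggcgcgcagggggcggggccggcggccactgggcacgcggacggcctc
Tef: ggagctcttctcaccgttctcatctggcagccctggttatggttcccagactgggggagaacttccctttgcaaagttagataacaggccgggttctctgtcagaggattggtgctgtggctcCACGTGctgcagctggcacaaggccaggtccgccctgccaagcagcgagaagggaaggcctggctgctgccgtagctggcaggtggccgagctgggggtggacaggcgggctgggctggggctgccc
Per1 has 1 E-box and Tef 1 E-box in the windows printed, first base at -166 and -127 from the start, and Per3 has 2 D-boxes, at -205 and -158. A second RefSeq start of Per1 had no E-box and a second start of Tef had 1. CACGTG was in 6.02% and TTATGTAA in 0.819% of 32851 upstream windows of this length, and the upstream windows of Arntl, Npas2, Dbp, Nr1d1, Nr1d2, Hlf and Usp2 held neither set of letters. Among clock genes that did not pass, CACGTG occurred 3 times before Ciart and 1 time each before Cry1 and Bhlhe41, so the letters were not limited to the higher genes, and neither set was found before Clock, Cry2 or Nfil3. Per2 and Bhlhe40 were not analysed here.

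Airway secretory genes moved in both directions. The list of 16 club and goblet cell genes had 5 higher, 4 lower and 7 that did not pass, against 2.11% and 3.15% of all genes. Its median was 0.08. Bpifa1, an airway surfactant protein with antibacterial action, read 10.75, 10.44 and 11.36 in BALB/cJ and 9.15, 8.80 and 7.86 in DBA/2J, a difference of 2.25 ± 0.38 (limma adjusted p = 0.00053). Bpifb1, a related secreted protein, went the other way at 7.72, 8.02 and 8.51 against 9.90, 9.56 and 8.80, a difference of -1.34 ± 0.30 (limma adjusted p = 0.0074). Of 14 BPI fold genes measured, 1 was higher and 2 lower; the third, Bpifb5, was lower (-0.34). Scgb3a2, a secretoglobin of club cells, was lower (-0.63 ± 0.12), with BALB/cJ at 9.37 to 9.46, under every other strain. Gabrp (-0.50, and an adjusted p of 0.058 without DBA/2J replicate 1) and Aldh3a1 (-0.68) were also lower, while the most abundant club cell gene, Scgb1a1, did not pass (limma adjusted p = 0.62).

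Mucus and defence genes varied within the strains. Clca1, a secreted product of goblet cells that rises in type 2 inflammation, read 5.03, 7.71 and 8.37 in BALB/cJ, an SD of 1.77, and 4.77, 4.64 and 4.50 in DBA/2J. BALB/cJ replicate 1 was thus close to DBA/2J and the other 2 far above it; the difference was 2.40 ± 0.55 (limma adjusted p = 0.0085), and the adjusted p was 0.063 without BALB/cJ replicate 2 and 0.073 without BALB/cJ replicate 3. Reg3g, an antimicrobial lectin, read 8.54, 8.16 and 9.15 against 8.23, 6.14 and 5.46, and overlapped. Its difference of 2.00 ± 0.54 passed (limma adjusted p = 0.028) and stopped passing without DBA/2J replicate 2 or 3 or BALB/cJ replicate 1 or 3, with adjusted p from 0.075 to 0.21. Ltf, lactoferrin, was higher by 1.14 ± 0.31 and stopped passing without DBA/2J replicate 2 (adjusted p = 0.095), DBA/2J replicate 3 (0.19), BALB/cJ replicate 2 (0.083) or BALB/cJ replicate 3 (0.12). Bpifb1 stopped passing without DBA/2J replicate 1 (adjusted p = 0.071) or BALB/cJ replicate 1 (0.059). The mucin Muc5b was higher by 0.97 ± 0.22, and had an adjusted p of 0.091 without DBA/2J replicate 3 and 0.055 without BALB/cJ replicate 3. Leaving out 1 array took the 5 higher genes to 3 without DBA/2J replicate 2 or BALB/cJ replicate 2, 2 without DBA/2J replicate 3 and 1 without BALB/cJ replicate 3, and the 4 lower genes to 2 without DBA/2J replicate 1.

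Genes of motile cilia, the beating organelles of airway ciliated cells, were lower in BALB/cJ. Of 16 measured, 9 passed and all 9 were lower, and the 7 others had negative differences too; the list median was -0.39, and 3.15% of all genes were lower. Rsph4a, a radial spoke protein, read 6.94, 6.96 and 7.34 in BALB/cJ and 7.92, 7.94 and 7.67 in DBA/2J, a difference of -0.77 ± 0.12 (limma adjusted p = 0.00026). The dynein heavy chains Dnah11 (-0.67 ± 0.11), Dnah9 (-0.55 ± 0.10) and Dnah5 (-0.39 ± 0.11) and the intermediate chain Dnaic1 (-0.50 ± 0.10) were lower, each with no overlap. Cfap126, Tppp3, Tekt2 and Ccdc39 were lower, with differences of -0.51 to -0.40. Foxj1, the regulator of ciliogenesis, did not pass (limma adjusted p = 0.33). The list mean was 6.91 to 7.03 on the BALB/cJ arrays and 7.30 to 7.42 on the DBA/2J arrays. The 9 fell to 5 without DBA/2J replicate 1 and to 6 without DBA/2J replicate 2 or 3 or BALB/cJ replicate 1 or 2. The calls lost in single-array omissions were those of Tppp3, Tekt2, Ccdc39 and Dnah5, with adjusted p from 0.056 to 0.17. Dnah5 did not pass when any 1 of the 6 arrays was left out (adjusted p = 0.060 to 0.17).

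**Figure D4:**
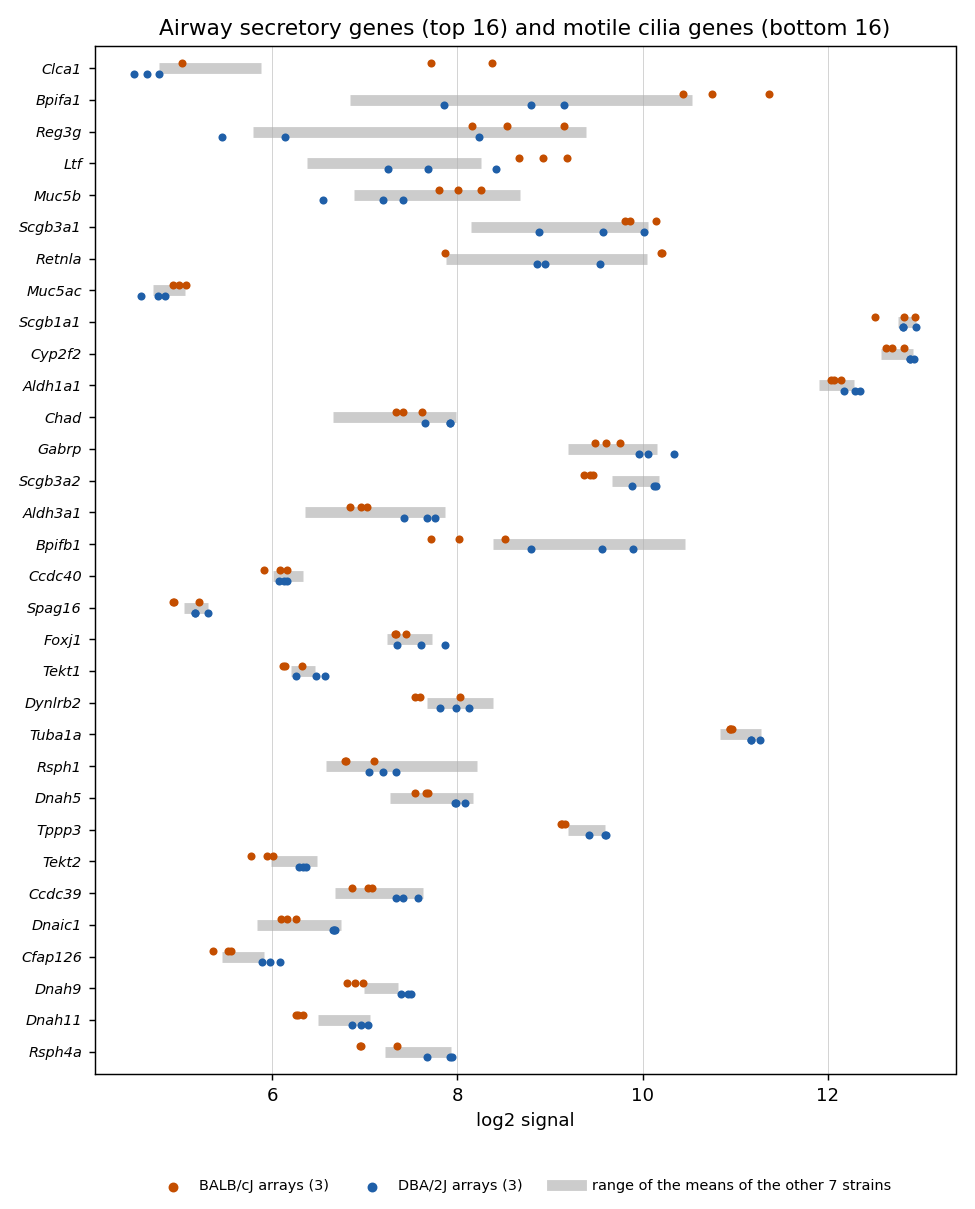
Log2 signal (horizontal axis) of 16 airway secretory genes (top) and 16 motile cilia genes (bottom) on the 3 BALB/cJ arrays (orange) and the 3 DBA/2J arrays (blue); grey bars span the means of the other 7 strains. The secretory genes run from Clca1 and Bpifa1, higher in BALB/cJ, to Bpifb1, lower, and the blue points of the cilia genes tend to lie to the right of the orange ones.

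Alveolar type II genes showed a rise in some secreted products. Of 15 measured, 5 were higher, 2 lower and 8 did not pass, against 2.11% higher and 3.15% lower over all genes. Hc, complement C5, for which DBA/2J carries a known frameshift deletion, read 10.88, 10.80 and 10.90 in BALB/cJ and 9.87, 9.62 and 9.90 in DBA/2J, a difference of 1.06 ± 0.09 (limma adjusted p = 1.6261e-08). The protease Napsa, which processes surfactant protein B, was higher by 0.66 ± 0.08. The collectins Sftpd (0.53 ± 0.08) and Sftpa1 (0.34 ± 0.06) and the lysozyme Lyz1 (0.71 ± 0.11) were higher. Scd1, a fatty acid desaturase, was lower (-0.58 ± 0.11), as was Cd74, the MHC class II invariant chain (-0.43 ± 0.11). Of these 2, 1 passed without DBA/2J replicate 1 or 3 or BALB/cJ replicate 1 or 2; Cd74 then had an adjusted p of 0.059 to 0.085. The list median was 0.01. Of 10 type I cell genes, Aqp5, a water channel, was lower (-0.69 ± 0.11), at 8.82, 8.86 and 8.63 against 9.45, 9.58 and 9.34, and the other 9 did not pass.

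Among 15 alveolar macrophage genes, 2 were higher, 4 lower and 9 did not pass, against 2.11% and 3.15% of all genes. Krt79 (-1.33), the integrin gene Itgax (-0.48 ± 0.10), the cholesterol exporter Abcg1 (-0.50 ± 0.08) and the proton pump subunit Atp6v0d2 (-0.54 ± 0.12) were lower. Krt79 read 6.36, 6.26 and 6.79 in BALB/cJ and 7.71, 7.79 and 7.88 in DBA/2J, with no overlap. Car4, higher by 0.57 ± 0.09 and also made by capillary endothelium, and Gpnmb, the gene with the DBA/2J allele above, were the 2 higher genes. Atp6v0d2 had an adjusted p of 0.054 without BALB/cJ replicate 2. The list mean was 7.53 to 7.90 on the BALB/cJ arrays and 7.96 to 8.01 on the DBA/2J arrays. Of 14 interstitial macrophage and monocyte genes, the lectin Mgl2 was higher by 0.87 ± 0.16, and Adgre1 (-0.52), Cx3cr1 (-0.46) and Ccr2 (-0.36) were lower. Cx3cr1 passed only with all arrays or without BALB/cJ replicate 1 or 2 (adjusted p otherwise 0.055 to 0.14), and Ccr2 only with all arrays or without DBA/2J replicate 2 (otherwise 0.077 to 0.31).

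Antigen-presenting genes were lower in BALB/cJ where they passed. The share of all genes that were lower was 3.15%. Of 14 dendritic cell genes 3 were lower: the lectin Cd209a, at 6.34, 6.49 and 6.81 against 7.64, 7.45 and 7.47, a difference of -0.97 ± 0.14 (limma adjusted p = 9.164e-05), the chemokine receptor Xcr1 (-0.48) and the cytokine receptor Flt3 (-0.49). That count was 1 without DBA/2J replicate 3 or BALB/cJ replicate 1. Of 12 MHC class II genes Cd74 and Ciita (-0.55 ± 0.15), the class II transactivator, were lower, the other 10 had negative differences and did not pass, and the list mean was 8.17 to 8.30 on the BALB/cJ arrays and 8.50 to 8.61 on the DBA/2J arrays. Of 19 class I genes H2-Q8 (-0.72), H2-Q9 (-0.90) and H2-D1 (-0.34) were lower. The strains share the d haplotype of the H2 complex. No gene of these 3 lists reached 2-fold, and the class I and II counts fell to 0 without DBA/2J replicate 1 or 3, the class I count also without BALB/cJ replicate 2 and the class II count also without BALB/cJ replicate 1. They fell to 1 without BALB/cJ replicate 1 for class I and without DBA/2J replicate 2 for class II.

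Genes that handle foreign compounds were mostly lower where they passed. Of 48 measured, 2 were higher, 11 lower and 35 did not pass, against 2.11% and 3.15% of all genes. Among all 1064 passing genes, too, more were lower (637) than higher (427). Cyp1a1, the classical target of the aryl hydrocarbon receptor AHR, read 7.79, 8.03 and 8.45 in BALB/cJ and 6.97, 6.95 and 6.56 in DBA/2J, a difference of 1.26 ± 0.18 (limma adjusted p = 5.6586e-05). DBA/2J is known for a low-affinity AHR allele, and the receptor transcript Ahr did not pass (limma adjusted p = 0.30). For Cyp1a1 BALB/cJ lay above the other 8 strains, DBA/2J was not at an end, and 3 of the other 7 strains were nearer to DBA/2J. Other genes often driven by AHR went the other way: Cyp1b1 by -0.49 ± 0.13, Nqo1 by -0.76 ± 0.14 and Aldh3a1 by -0.68 ± 0.13. The part of the AHR allele in any of these differences was not tested. Ces1g read 5.54, 5.94 and 6.09 against 7.48, 7.14 and 7.55, a difference of -1.53 ± 0.17, and with Ces1f (-1.06) and Ces1e made 3 lower genes of 8 in the carboxylesterase 1 family. Cyp2s1 (-0.49), Cyp2b10 (-0.46), Cyp4b1 (-0.43), Aldh1a7 (-0.35), Ephx1 (-0.28) and Sult1d1 (-0.69) were lower. The 11 lower genes became 6 without DBA/2J replicate 1 or BALB/cJ replicate 1 or 2, and 7 without DBA/2J replicate 2. The calls lost in single-array omissions were those of Aldh1a7, Cyp1b1, Cyp2b10, Ephx1 and Sult1d1, with adjusted p from 0.069 to 0.25.

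The 250 bases before the starts of Cyp1a1 and Cyp1b1 are shown because both are AHR targets and differed in opposite directions (RefSeq, GRCm38.p6, chr9:57697363-57697612, plus strand, and chr17:79715062-79715311, minus strand). Capitals mark GCGTG, the core letters of the AHR element, searched on both strands; in Cyp1b1 it lies on the other strand and reads CACGC.
Cyp1a1: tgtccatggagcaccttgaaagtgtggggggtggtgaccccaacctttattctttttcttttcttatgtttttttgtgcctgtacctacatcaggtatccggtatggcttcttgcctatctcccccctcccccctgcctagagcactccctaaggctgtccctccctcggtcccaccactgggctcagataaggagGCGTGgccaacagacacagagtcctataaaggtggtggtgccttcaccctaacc
Cyp1b1: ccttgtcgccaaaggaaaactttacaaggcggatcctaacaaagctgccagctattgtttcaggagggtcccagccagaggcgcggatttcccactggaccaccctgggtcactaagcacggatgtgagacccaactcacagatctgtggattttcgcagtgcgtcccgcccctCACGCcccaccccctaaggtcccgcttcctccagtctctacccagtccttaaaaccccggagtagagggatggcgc
Each window holds 1 match, first base at -54 in Cyp1a1 and -76 in Cyp1b1, and 28.2% of all upstream windows hold at least 1. The window of Nqo1, which was lower like Cyp1b1, holds none.

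Antioxidant genes of the Nrf2 list had 1 higher and 4 lower among 18, against 2.11% and 3.15% of all genes. Gpx3, a secreted glutathione peroxidase, was higher by 0.81 ± 0.09, at 10.53, 10.34 and 10.62 in BALB/cJ against 9.58, 9.60 and 9.87 in DBA/2J. Gclc (-0.46), which makes glutathione, Gpx2 (-0.69), Txnrd1 (-0.26) and Nqo1 were lower. Txnrd1 passed without BALB/cJ replicate 3 and not when any other of the 6 arrays was left out (adjusted p = 0.067 to 0.26). Nqo1 is also on the list of foreign-compound genes.

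Interferon-related families differed by member and not as a whole. Their counts stand beside 2.11% higher and 3.15% lower over all genes. Of 13 interferon-inducible GTPases, 2 were higher, Gbp2b (2.82) and Gbp9 (1.00), and 2 lower, Gbp8 (-2.48) and Gbp2 (-0.68). Gbp8 read 6.60, 6.38 and 6.52 in BALB/cJ and 9.03, 8.89 and 9.00 in DBA/2J, with the other strains at 6.32 to 7.19. Of 10 Ifi200 cluster genes, 1 was higher and 2 lower, and 2 of 26 interferon-stimulated genes were higher: Ifi44l by 1.23 ± 0.21 and the RNA sensor Ifih1 by 0.35 ± 0.09. Ifih1 did not pass without DBA/2J replicate 1 or BALB/cJ replicate 2 (adjusted p = 0.071 and 0.053), nor Gbp2 without any of 5 arrays, all but DBA/2J replicate 2 (0.081 to 0.23). The Trim12, Trim30 and Trim34 cluster had no gene pass.

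Chemokine genes had 1 higher and 6 lower of 41, against 2.11% and 3.15% of all genes. Cxcl14 read 7.60, 8.01 and 7.70 in BALB/cJ and 8.97, 9.01 and 9.07 in DBA/2J, a difference of -1.25 ± 0.15 (limma adjusted p = 6.8103e-06). The receptor Cxcr4 was higher by 0.52 ± 0.12, and Ackr3, Cxcl16, Ccr1 and Ccr2 were lower, with differences of -0.69 to -0.36. The lower count was 3 without BALB/cJ replicate 2, Ccr1 did not pass without DBA/2J replicate 1 or 3 or BALB/cJ replicate 1 or 2 (adjusted p = 0.059 to 0.13), and Cxcr4 had an adjusted p of 0.059 without DBA/2J replicate 2. Ppbp, a chemokine stored in platelets, was lower (-1.96 ± 0.44), at 8.81, 8.06 and 9.24 against 10.67, 10.27 and 11.05 (limma adjusted p = 0.0069), and had an adjusted p of 0.058 without BALB/cJ replicate 2. The platelet and erythroid list of 10 genes had a mean of 6.34 to 7.03 on the BALB/cJ arrays and 6.87 to 7.62 on the DBA/2J arrays, with 9 of 10 differences negative and Ppbp alone passing; the part of blood content in the Ppbp difference was not tested.

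Heart muscle genes in mouse lung come from the sleeve of cardiac muscle around the pulmonary veins. They had 1 higher and 4 lower of 16, against 2.11% and 3.15% of all genes. Myh7, the slow myosin heavy chain, read 8.60, 8.72 and 8.55 in BALB/cJ and 7.49, 7.54 and 7.58 in DBA/2J, a difference of 1.08 ± 0.13 (limma adjusted p = 5.1064e-06). Myl3 (-0.94), Tnnc1 (-0.83), Myl4 (-0.64) and Actc1 (-0.63) were lower, and that count was 1 without DBA/2J replicate 2 or BALB/cJ replicate 1. The list mean was 7.42 to 7.75 on the BALB/cJ arrays and 7.67 to 7.996 on the DBA/2J arrays. Of 21 endothelial genes 4 were higher, Selp (0.69), Car4, Gpihbp1 (0.51) and Flt4 (0.29), and Stab2 was lower. Flt4 did not pass when any 1 of the 6 arrays was left out (adjusted p = 0.060 to 0.14).

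Of 29 lung tumour candidate genes, 2 were higher, 2 lower and 25 did not pass, against 2.11% and 3.15% of all genes. None reached 2-fold. Ros1, a receptor tyrosine kinase, read 5.60, 5.76 and 5.51 in BALB/cJ and 4.77, 4.81 and 4.76 in DBA/2J, a difference of 0.84 ± 0.12 (limma adjusted p = 9.3063e-05). The receptor Met was higher by 0.32 ± 0.09 (limma adjusted p = 0.045). The growth factor receptor Egfr was lower (-0.39 ± 0.10), at 7.51, 7.56 and 7.51 against 7.95, 7.89 and 7.91, and Cd44, a hyaluronan receptor, was lower (-0.27 ± 0.06). All 4 had arrays without overlap. Met did not pass when any 1 of the 6 arrays was left out (adjusted p = 0.072 to 0.16), Egfr when any but DBA/2J replicate 2 was (0.051 to 0.090), and Cd44 without DBA/2J replicate 2 or BALB/cJ replicate 1 (0.053 and 0.066).

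Of 32 genes with known variants among laboratory strains, 3 were higher and 3 lower, against 2.11% and 3.15% of all genes. Besides Gpnmb and Hc, Nnt, a mitochondrial transhydrogenase, was higher by 0.56 ± 0.10. Myo5a, the gene of the dilute coat colour allele that DBA/2J carries, was lower in BALB/cJ (-0.82 ± 0.12), at 7.30, 7.49 and 7.43 against 8.27, 8.24 and 8.16. Glo1, which varies in copy number between strains, was lower (-0.71 ± 0.12), and the third lower gene was Stab2 (-3.50). Klrd1, the NK cell receptor CD94 that DBA/2J is known to lack, did not pass (limma adjusted p = 0.082), nor did Alad (limma adjusted p = 0.80).

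In lists of other cell types the share that passed was near the 5.26% of all genes. No gene passed of 13 T cell, 13 B cell, 18 immediate early, 12 skeletal muscle, 11 adipocyte, 9 mesothelial or 10 stress and RNA handling genes. One gene each passed of 19 NK cell, 14 neutrophil and 13 mast cell and eosinophil genes, all higher in BALB/cJ, and the neutrophil one was Ltf, which airway glands also make. The NK cell gene, Gzmb, had an adjusted p of 0.040, and no gene of that list passed under quantile normalization or without BALB/cJ replicate 2 or 3 or DBA/2J replicate 1 or 2. One of 28 cell cycle genes passed.

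**Figure D5:**
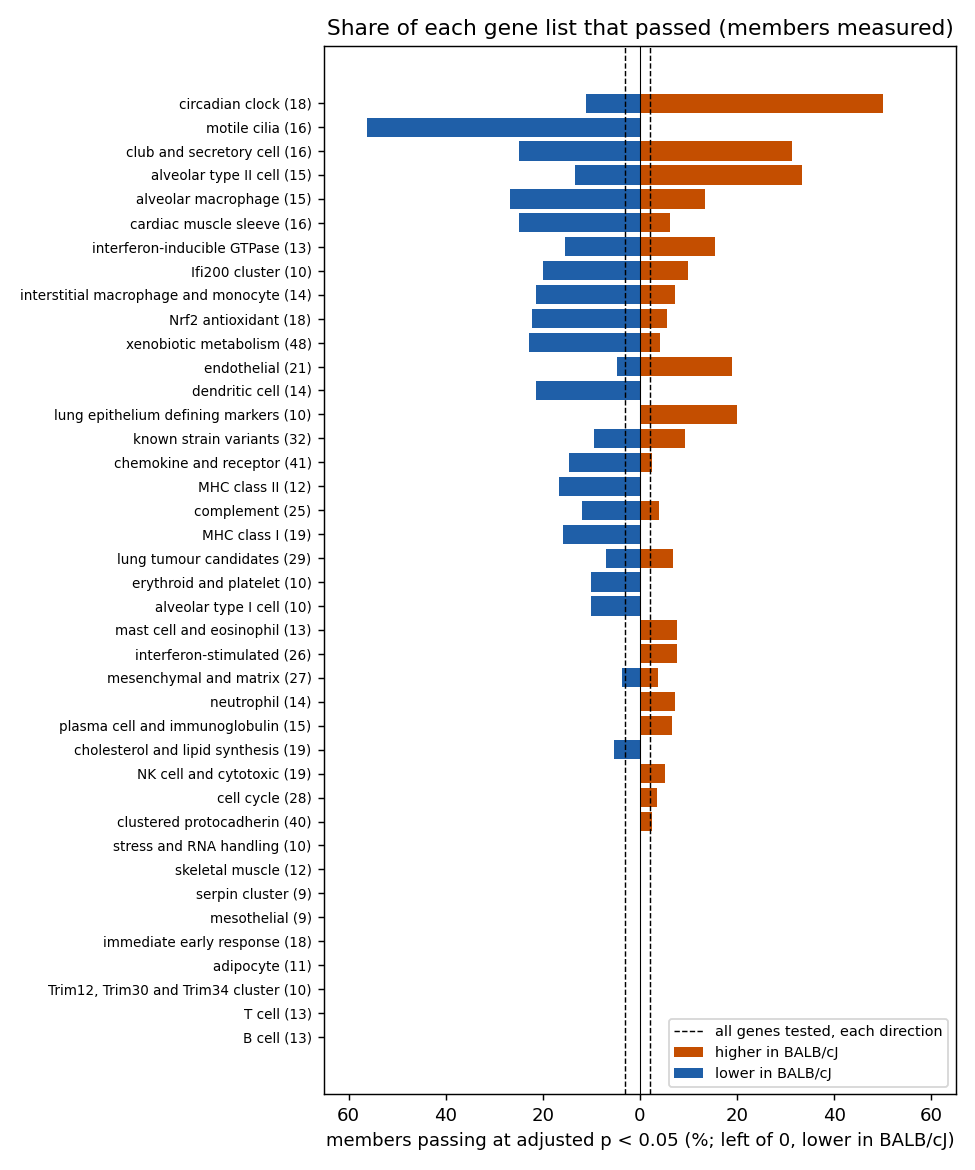
Percent of the measured members of each gene list that passed at a limma adjusted p under 0.05, to the right for genes higher in BALB/cJ and to the left for genes lower, with the number measured in brackets. Dashed lines mark all genes tested, 2.11% higher and 3.15% lower; the clock list extends farthest to the right and the motile cilia list farthest to the left.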

How the data were processed

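The 6 arrays were grouped by the strain in the labels. TRIzol extraction, RNeasy purification and biotin labelling of whole-transcript DNA were done per the labels' protocols. The deposited values are log2 signal of 21225 probe sets. The authors used the affy package (version not given), per the submitters' processing notes; how arrays were normalized is not stated there. The values were used as deposited. Of the probe sets, 20239 had 1 gene symbol and 986 had none and were left out.

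limma 3.58.1 in R 4.3.3 was fitted to all 27 arrays with 1 mean per strain, followed by the contrast BALB/cJ minus DBA/2J, eBayes and the Benjamini-Hochberg adjustment over the 20239 genes. The fit was tested on simulated data. Genes were named as the 15 largest non-overlapping differences in each direction, the smallest p-values of 41 lists (736 of 811 entries measured, 2 under another symbol), runs of neighbouring genes and relatives of the leading genes. A gene list is described by its counts and median beside those of all genes. The comparison and the lists were chosen with earlier results of these data known. P-values rest on the spread between arrays of the same strain, pooled over all 27 arrays, and not on the 6 compared arrays alone. When only the 6 arrays were fitted, 89 of the 92 genes at 2-fold still counted. Clca1, Reg3g and Rpsa did not, with limma adjusted p of 0.11, 0.12 and 0.19. The 3 arrays of each strain limit the precision of its mean. Alternatives were scaling, probe filters, the eBayes prior, array weights, a replicate block and leaving out single arrays. Promoter and microRNA sequences came from RefSeq, GRCm38.p6.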

Additional observations from a re-analysis of the deposited data

How the results depend on the processing

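Of the 92 genes at 2-fold, 84 kept an adjusted p under 0.05 under every alternative that tested them, and none changed direction; the 8 others were Clca1, Ppbp, Ltf, Bpifb1, Reg3g, Rpsa, Ugt1a6b and Zbtb16. Fitting only the 6 arrays gave 96 genes at 2-fold and 741 passing, of which 278 were higher in BALB/cJ, with fewer samples behind the spread; array weights gave 1495 passing. A minimum log2 difference of 0.5 gave 519 genes and of 2 gave 14. Runs of adjacent genes held 199 genes when formed from all passing genes in place of those at 2-fold. Leaving out each of the 6 arrays gave 82 to 93 genes at 2-fold, 31 to 38 of them higher and 45 to 60 lower, and 658 to 942 passing, 255 to 412 higher and 399 to 530 lower. Replicate numbers are shared by the strains, and whether they pair the samples is not known. The deviations of same-numbered arrays correlated at -0.05, 0.07 and 0.26, and 3 of 6 arrays were closest to their own number. With 3 arrays per strain these values cannot decide it. With the replicate number as a block, 92 genes were at 2-fold and 1054 passed; with the block and only the 6 arrays, 97 and 734. Quantile normalization and median centring gave 87 and 91 genes at 2-fold, and the median of all genes moved from 0.02 to 0.01 and 0.02. Among the list genes named above, Ccr2 and Ephx1 stopped passing under both scalings, Xcr1 and Gzmb under quantile normalization and Sult1d1, Flt4 and Met under median centring. In the fit of only the 6 arrays, Sftpa1, Gabrp, Itgax, Atp6v0d2, Cx3cr1, Ccr2, Xcr1, Flt3 and H2-D1 did not pass. Nor did Ciita, Ccr1, Cxcr4, Aldh1a7, Ephx1, Sult1d1, Nr1d1, Tef, Usp2, Met, Cd44, Flt4 or Txnrd1 in that fit. Rpsa, whose copies are hard to separate, had adjusted p from 0.054 to 0.25 in the single-array omissions where it did not pass. Differences of dim genes are limited by the background level of the array.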

Other observations

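Further genes at 2-fold are given here; apart from Mill2, Masp1 and Snord15a, they were chosen after their values were seen. Mill2, an MHC class I-like gene, was lower in BALB/cJ (-1.53 ± 0.11), and here the strains were at opposite ends of the 9, with BALB/cJ at 6.53 to 6.66, DBA/2J at 8.06 to 8.16 and the other strains at 6.76 to 7.33. Ly6d, a surface antigen of B cell precursors and squamous epithelium, was lower (-1.67 ± 0.15). In the coagulation system, Plat, tissue plasminogen activator, was lower (-1.03 ± 0.11), as was F5, coagulation factor V (-1.01 ± 0.14), and Masp1, of the lectin pathway of complement, was lower (-1.10 ± 0.10). Higher in BALB/cJ were the cytokine gene Il1a, by 1.07 ± 0.18, at 6.38, 6.47 and 6.51 against 5.001, 5.83 and 5.32, and Cd72, a B cell surface receptor, by 1.05 ± 0.14, with no B cell list gene passing beside it. Snord15a, a small nucleolar RNA, was higher by 1.49 ± 0.17.

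Zbtb16, a transcription factor of innate-like lymphocytes, was higher by 1.16 ± 0.30. Its arrays read 8.65, 9.19 and 9.05 in BALB/cJ and 7.48, 7.44 and 8.48 in DBA/2J, where replicate 3 stood near BALB/cJ, and its limma adjusted p of 0.022 became 0.069 to 0.13 without DBA/2J replicate 1 or 2 or BALB/cJ replicate 2 or 3.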
